A study of Mus musculus with 24 samples.

Results

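Acute phase proteins are secreted in larger amounts during inflammation and tissue injury, and 8 genes of such proteins that are transcribed in the heart were followed here: Saa3, Lcn2, Ptx3, Serpina3n, Serpina3m, Hp, Cp and Lbp. They were chosen by name, with earlier results of these data known, as 8 of the 46078 Ensembl genes in the count tables, and each ID was matched to its mouse symbol. All 8 were among the 15128 genes that passed the filter on low counts, Saa3 and Serpina3m only through the late groups in which they were high. Ptx3, with 6, 6 and 5 reads in the sham libraries, passed only through the groups with ischemia, in which it was higher. Hp, with 15, 8 and 0 reads in the sham libraries, passed only with the reperfused groups, in which its mean was higher. RNA came from flash-frozen heart tissue of C57BL/6 mice, an inbred laboratory strain, and the labels name no transgene, age, sex or region of the heart. Of the 8 groups, 1 had sham surgery and 7 had 45 min of ischemia. Of these 7, 1 was taken with no reperfusion, and the other 6 were reperfused for 0.5, 1, 1.5, 3, 6 or 12 h. The labels give no time after surgery for the 1 sham group. In comparisons with sham, reperfusion and time since surgery therefore cannot be told apart. Each group held 3 libraries, 24 in all. Whether the 3 libraries of a group are 3 mice is not stated in the labels; each p-value therefore measures only the spread between these samples, which may be technical.

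The acute phase response is usually described in the liver, where interleukin 6, acting through STAT3, and interleukin 1 and tumour necrosis factor, acting through NF-kappaB and C/EBP factors, raise the output of plasma proteins. Several of these genes are also transcribed outside the liver, in fibroblasts, endothelium, macrophages, fat or heart muscle. By role, Ptx3, Saa3 and Lbp encode proteins that bind microbial or damaged surfaces and lipids, Lcn2, Hp and Cp encode proteins that handle iron, haemoglobin or copper, and Serpina3n and Serpina3m encode inhibitors of serine proteases.

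Between 13407465 and 17181458 uniquely mapped reads per library were counted in genes, of which 39.2% to 54.5% were marked as duplicates and 19.003% to 33.2% came from mitochondrial genes. The mitochondrial share differed between groups: 28.9%, 31.05% and 33.2% in sham, and 19.7%, 19.04% and 21.3% at 6 h. In ischemia it was 30.2%, 29.7% and 19.003%, with 52.7%, 54.5% and 41.2% duplicates. The part of the mitochondrial share in the comparisons was not tested. Levels are given in CPM, reads per 1000000 reads of the library, scaled by TMM factors (trimmed mean of M-values), and 3 reads corresponded to 0.151 to 0.240 CPM. Because reads amplified by PCR and carrying no molecular identifier are not separate molecules, this floor and all intervals cover counting error only. The labelled tissue was checked by its markers: the cardiac myosin heavy chain Myh6 lay between 16075 and 38432 CPM over the 24 libraries. In bulk tissue, fewer cells of a type and less RNA per cell cannot be told apart, and the same holds for more cells and more RNA.

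The comparisons with sham asked which of the 8 genes differed at each time. A gene was called higher or lower at an adjusted p under 0.05 in edgeR's quasi-likelihood test with Benjamini-Hochberg adjustment over all 15128 genes, and all 7 comparisons share the same 3 sham libraries. In ischemia 0 of the 8 genes were called by edgeR, where 0.0925% of all tested genes were called; 1, Ptx3, had an unadjusted p under 0.05. DESeq2 called 1 of the 8 and limma-voom 0, where they called 0.264% and 0.0198% of all genes higher. At 0.5 h 1 gene, Ptx3, was higher (7.43% of all genes were) and 1, Cp, was lower (4.48%). Ptx3 alone of the 8 was called at 1 h (7.46% of all genes were higher and 3.41% lower). At 1.5 h Ptx3, Lcn2 and Serpina3n, 3 of the 8, were higher, against 4.55% of all genes, and 0 were lower, against 2.99%. The count of higher genes was 6 of 8 at 3 h (18.4% of all genes), 7 of 8 at 6 h (24.6%) and 7 of 8 at 12 h (16.9%), with 0 of the 8 lower at these 3 times, against 16.9%, 22.9% and 14.9% of all genes. Without Saa3 and Serpina3m, which passed the filter only through groups in which they were high, 5 of 6 were higher at each of these 3 times. Ptx3 and Hp, among these 6, passed only through groups in which they were higher, so this count still holds genes favoured by the filter. The median log2 difference of the 8 from sham was 2.76, 4.22 and 4.67 at 3, 6 and 12 h, with Saa3 set at its ratio of reads and Serpina3m at its lower bound. The fitted values of those 2 genes, which rest on 2 and 0 sham reads, gave medians of 3.39, 4.68 and 5.30, and the median over all tested genes lay between -0.013 and 0.010. In the test across all 8 groups 8 of 8 were called, as were 64.3% of all genes.

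**Figure D1:**
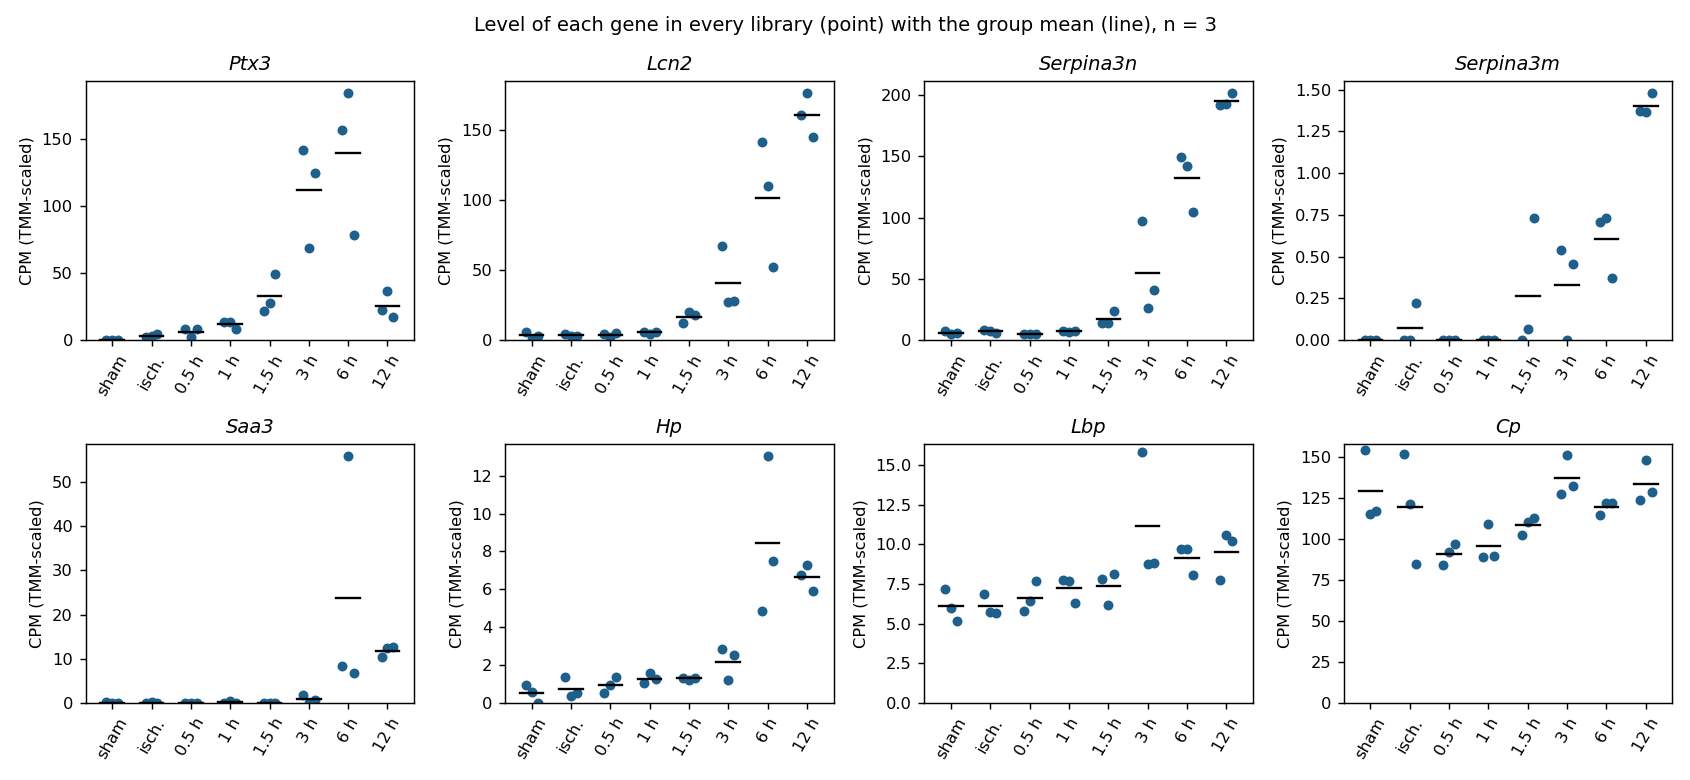
Level of the 8 genes in CPM (vertical axis, linear, starting at 0) in each of the 24 libraries (points) by group, with the mean of each group of 3 as a line. Lcn2, Serpina3n and Serpina3m were highest at 12 h, Ptx3, Saa3 and Hp had their highest mean at 6 h, and the points of Cp lay between 83.9 and 155 CPM throughout. Without 6 h replicate 2 the means of Saa3 and Hp were highest at 12 h.

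**Figure D2:**
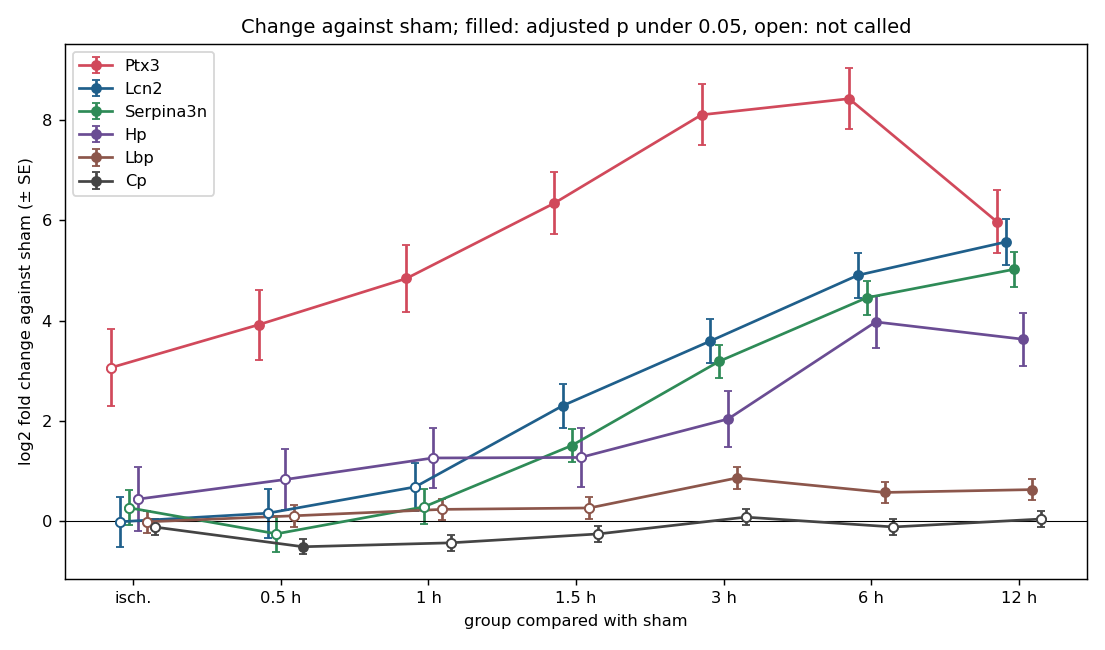
Log2 fold change against sham with its standard error (vertical axis) for 6 of the genes in each later group (horizontal axis); filled points had an adjusted p under 0.05. Saa3 and Serpina3m are left out because their sham libraries held 2 and 0 reads. Ptx3 reached 8.43 at 6 h and stood at 5.98 at 12 h, while Lcn2 and Serpina3n were highest at 12 h.

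For the genes that changed most the sequence around the transcription start is shown, because inflammatory inducers act on such promoters. RefSeq's table for GRCm38.p6 held windows of 250 bases before to 50 bases after a start for 5 of the 8 genes, and those of the 4 with the largest rises among them are given 5′ to 3′ on the gene's strand. Capitals mark matches, on either strand, to the C/EBP motif TTGCNNAA, the STAT motif TTCNNNGAA or the NF-kappaB consensus.
Ptx3 (chr3:66219637-66219936, + strand): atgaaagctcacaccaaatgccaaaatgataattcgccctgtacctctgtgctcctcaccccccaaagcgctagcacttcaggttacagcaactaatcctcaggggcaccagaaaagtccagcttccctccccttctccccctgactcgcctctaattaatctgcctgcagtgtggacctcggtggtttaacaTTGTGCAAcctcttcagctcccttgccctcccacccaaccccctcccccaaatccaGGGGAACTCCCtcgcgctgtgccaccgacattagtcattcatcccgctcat
Lcn2 (chr2:32387690-32387989, - strand): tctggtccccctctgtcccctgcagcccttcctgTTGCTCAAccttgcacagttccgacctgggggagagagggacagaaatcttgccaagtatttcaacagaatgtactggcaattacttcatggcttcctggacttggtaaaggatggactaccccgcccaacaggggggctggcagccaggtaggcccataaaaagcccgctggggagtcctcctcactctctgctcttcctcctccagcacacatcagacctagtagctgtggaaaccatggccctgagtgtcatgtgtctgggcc
Saa3 (chr7:46715627-46715926, - strand): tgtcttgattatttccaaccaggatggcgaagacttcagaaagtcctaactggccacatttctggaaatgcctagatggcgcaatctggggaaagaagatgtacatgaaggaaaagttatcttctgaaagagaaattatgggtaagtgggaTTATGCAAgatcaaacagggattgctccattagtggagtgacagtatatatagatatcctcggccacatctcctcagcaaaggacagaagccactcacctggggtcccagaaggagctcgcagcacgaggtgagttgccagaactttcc
Serpina3n (chr12:104406458-104406757, + strand): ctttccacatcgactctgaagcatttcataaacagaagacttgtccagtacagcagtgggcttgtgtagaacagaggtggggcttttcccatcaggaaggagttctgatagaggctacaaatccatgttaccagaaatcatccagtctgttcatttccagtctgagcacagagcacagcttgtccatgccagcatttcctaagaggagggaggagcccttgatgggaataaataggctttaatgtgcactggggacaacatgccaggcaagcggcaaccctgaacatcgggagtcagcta
A C/EBP match began 57 bases before the Ptx3 start, 216 before that of Lcn2 and 99 before that of Saa3. A window of Cp, not shown, held a C/EBP match too, 70 bases before the start, although Cp was not called higher than sham at any time. The part of these motifs in the rises was not tested. The Ptx3 window also held 2 overlapping NF-kappaB matches at the start itself. Over all 32851 windows of this length, 10.8% held the C/EBP motif, 8.46% the NF-kappaB consensus, 8.30% the STAT motif, and 0.697% both of the first 2, as the Ptx3 window does. The Serpina3n window held none of the 3, which says only that these letters are not in this stretch.

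Among the genes for proteins that bind microbial or damaged surfaces, Ptx3 was called earliest and at the most times. Ptx3 (ENSMUSG00000027832, GRCm38 chr3:66219910-66225805, + strand, 3 merged exons) encodes pentraxin 3, a long pentraxin that is released at sites of inflammation and binds complement factors and extracellular matrix. Its level was 0.385, 0.411 and 0.399 CPM in the 3 sham libraries, from 6, 6 and 5 reads, and 2.48, 2.89 and 4.66 CPM after ischemia alone. During the first 1.5 h of reperfusion the libraries had 7.99, 1.97 and 8.51 CPM (0.5 h), 13.2, 13.3 and 8.51 CPM (1 h) and 21.4, 28.03 and 49.2 CPM (1.5 h). Every library after ischemia lay above every sham library, and each group mean up to 6 h was above the one before. At 3 h the values were 142, 68.7 and 125 CPM, at 6 h 157, 184 and 78.2 CPM, and at 12 h 22.6, 36.7 and 17.3 CPM. The libraries of 3 and 6 h overlapped, and those of 12 h lay below both and overlapped with those of 1.5 h.

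Against sham, Ptx3 was not called in ischemia although the groups did not overlap (log2 fold change 3.07 ± 0.76 SE, adjusted p = 0.176 by edgeR, 0.000455 by DESeq2 and 0.00834 when only these 6 libraries were fitted with edgeR). Over its 15 alternatives that adjusted p ran from 9.13e-22, with no filter on low counts, to 0.799, and 12 of them made no call. It rose by 3.92 ± 0.70 at 0.5 h (adjusted p = 0.00150, and 0.0694 with limma-voom), 4.84 ± 0.66 at 1 h, 6.34 ± 0.62 at 1.5 h, 8.11 ± 0.61 at 3 h and 8.43 ± 0.61 at 6 h (adjusted p = 3.64e-10). These log2 fold changes ranked 24, 19, 10, 5 and 9 among the 15128 tested genes. Between neighbouring times, the rise from 1.5 to 3 h was called (1.77 ± 0.37, adjusted p = 0.00440), and the difference between 3 and 6 h was not (0.32 ± 0.36, adjusted p = 0.534). From 6 to 12 h Ptx3 fell by 2.45 on the log2 scale (SE 0.38, adjusted p = 0.000186), the only one of the 8 genes called in that step, where 6.68% of all genes were lower. At 12 h it remained above sham by 5.98 ± 0.62 (adjusted p = 1.51e-07).

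Saa3 stayed near the detection limit until 3 h and then appeared at 6 h. It lies at GRCm38 chr7:46711998-46715700 on the - strand (ENSMUSG00000040026) and encodes serum amyloid A3, a lipoprotein-binding acute phase protein made mainly outside the liver in mice. The 3 libraries of a group together held 2 reads in sham, 2 in ischemia, 0 at 0.5 h, 5 at 1 h and 1 at 1.5 h. At 3 h the libraries had 1.75, 0 and 0.650 CPM, at 6 h 8.33, 55.9 and 6.85 CPM, and at 12 h 10.3, 12.5 and 12.6 CPM. Every library of 6 and 12 h lay above every earlier one, and 6 h replicate 2 stood 8.17 times above the lowest library of its group. The ratio of reads to sham was 18.3 at 3 h (95% exact counting interval 4.73 to 156), 505 at 6 h (139.6 to 4178) and 252 at 12 h (69.5 to 2087).

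In the fit Saa3 was called higher than sham at 6 h (adjusted p = 1.68e-06 by edgeR) and 12 h (2.84e-05), and not at 3 h (0.0666), where leaving out 3 h replicate 2, adding the replicate number as a block or testing without a filter on low counts gave a call (0.0312, 0.0412 and 1.37e-07). Both sham reads lay in sham replicate 1, and 918 of the 1169 reads of 6 h in 6 h replicate 2. The fitted log2 difference from sham, 8.76 at 6 h and 7.76 at 12 h, was 11.56 and 10.55 without the first of these libraries, and 7.12 at 6 h without the second, with a call each time. It rose from 3 to 6 h by 4.81 ± 0.75 on the log2 scale (adjusted p = 6.70e-05), and this was 3.18 without 6 h replicate 2 (adjusted p = 0.000865) and 6.08 without 3 h replicate 1. The difference between 12 and 6 h was not called (-1.01 ± 0.58, adjusted p = 0.266). Its sign turned without 6 h replicate 2 (0.63, adjusted p = 0.53), and it was called lower with no filter on low counts (-0.98, 0.000661), so these data give it no settled direction. The library with the highest Saa3, 6 h replicate 2, also had the highest summed neutrophil markers of all 24 libraries (257 CPM, against 114 and 134 CPM in the other two of its group). What part those cells had in the Saa3 level was not tested.

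Lbp changed little. It encodes the lipopolysaccharide-binding protein, which hands bacterial lipid to CD14 and the Toll-like receptor 4 complex (ENSMUSG00000016024, GRCm38 chr2:158306493-158332852, + strand). Its libraries had 7.19, 5.96 and 5.19 CPM in sham, and between 5.70 and 8.16 CPM from ischemia to 1.5 h. At 3 h they had 15.8, 8.80 and 8.84 CPM, at 6 h 9.69, 9.69 and 8.09 CPM, and at 12 h 7.74, 10.6 and 10.2 CPM. All 9 of these late libraries lay above the 3 of sham. The rise was 0.87 ± 0.21 at 3 h (adjusted p = 0.00262), 0.58 ± 0.21 at 6 h (0.0270) and 0.64 ± 0.21 at 12 h (0.0226) by edgeR, all under 2-fold.

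The late calls of Lbp depended on single libraries. At 6 h the call was lost when 1 of sham 2, sham 3, 6 h 1 or 6 h 2 was left out (adjusted p = 0.0725, 0.111, 0.0711 and 0.0783 by edgeR, numbers after the group being the replicate). At 12 h it was lost without sham 2, sham 3, 12 h 2 or 12 h 3 (0.0687, 0.103, 0.0823 and 0.0681). The call at 3 h was kept without each library in turn.

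Of the genes whose proteins handle iron, haemoglobin or copper, Lcn2 was higher than sham at every time from 1.5 h to 12 h. Lcn2 encodes lipocalin 2, which binds bacterial iron carriers and is stored in neutrophil granules as well as induced in other cells (ENSMUSG00000026822, GRCm38 chr2:32384633-32388252, - strand). The sham libraries had 6.10, 1.10 and 2.80 CPM, a spread of 5.57 times, and those from ischemia to 1 h had 2.15 to 6.09 CPM, within the sham range. At 1.5 h they had 12.1, 19.9 and 18.2 CPM, at 3 h 67.4, 27.3 and 27.7 CPM, at 6 h 142, 110.3 and 52.5 CPM, and at 12 h 161, 177 and 145 CPM. From 1.5 h on no library overlapped with sham, and among the late groups 3 and 6 h overlapped while 12 h lay above both.

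Lcn2 rose against sham by 2.31 ± 0.44 at 1.5 h (adjusted p = 0.00155 by edgeR), 3.60 ± 0.44 at 3 h, 4.91 ± 0.45 at 6 h and 5.57 ± 0.45 at 12 h (4.61e-09), the last a fold of 47.5. Without sham replicate 1, the highest of the sham libraries, the same differences were 3.14, 4.42, 5.74 and 6.40. Between times, the steps from 1.5 to 3 h (1.29 ± 0.37, adjusted p = 0.0312) and from 3 to 6 h (1.31 ± 0.36, 0.00775) were called, and the step from 6 to 12 h was not (0.66 ± 0.35, 0.220). The first of these was lost when 1.5 h replicate 1, 1.5 h replicate 2, 1.5 h replicate 3 or 3 h replicate 1 was left out (adjusted p = 0.145, 0.0694, 0.0618 and 0.262) and with DESeq2 (0.0601), and the second without 3 h replicate 3 or 6 h replicate 1 (0.0504 and 0.0505). Over the longer interval from 3 to 12 h Lcn2 rose by 1.97 ± 0.36 (adjusted p = 0.000237) and was called under every alternative run.

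Hp, which encodes the haemoglobin-binding protein haptoglobin, was called from 3 h on (ENSMUSG00000031722, GRCm38 chr8:109575128-109579172, - strand). Sham libraries had 0.962, 0.548 and 0 CPM, and those from ischemia to 1.5 h ranged from 0.353 to 1.55 CPM. Values were 2.83, 1.18 and 2.53 CPM at 3 h, 4.85, 13.04 and 7.47 CPM at 6 h, and 6.75, 7.27 and 5.91 CPM at 12 h. No library of 1, 1.5, 3, 6 or 12 h overlapped with sham, and no library of 6 h overlapped with 3 h. At 1 and 1.5 h Hp was not called by edgeR (adjusted p = 0.169 and 0.206), except with no filter on low counts (0.0384 and 0.0360). The rise was 2.04 ± 0.56 at 3 h (adjusted p = 0.00666 by edgeR), 3.98 ± 0.52 at 6 h (1.51e-06) and 3.63 ± 0.52 at 12 h (1.29e-05), and 2.89, 4.82 and 4.48 without sham replicate 1. The step from 3 to 6 h was called (1.93 ± 0.43, adjusted p = 0.00176), and that from 6 to 12 h was not (-0.35 ± 0.39, 0.609). As for Saa3, the highest library was 6 h replicate 2, without which the latter difference was 0.11 (adjusted p = 0.919).

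Cp made up most of the summed per-length level before injury and was called at 0.5 h only. It encodes ceruloplasmin, a copper-carrying ferroxidase that helps iron leave cells (ENSMUSG00000003617, GRCm38 chr3:19957054-20009145, + strand). A stretch of 108 exonic bases overlaps with Hps3 on the other strand, and since strand use is not stated the reads there are of uncertain origin. Sham libraries had 155, 115 and 117 CPM, ischemia 152, 121 and 84.7 CPM, and 0.5 h 83.9, 91.8 and 97.2 CPM. Levels then ranged from 89.0 to 113 CPM at 1 and 1.5 h and from 115 to 151 CPM at 3, 6 and 12 h, which overlapped with sham. Cp was lower than sham at 0.5 h by a small margin (-0.50 ± 0.15, adjusted p = 0.0356 by edgeR), with no overlap between the libraries. That call was lost with library totals in place of TMM (adjusted p = 0.115), without sham replicates 1 or 3 (0.191 and 0.0575) and without 0.5 h replicates 1, 2 or 3 (0.141, 0.0805 and 0.0682). At 1 h the difference was -0.43 ± 0.15 (adjusted p = 0.0746), and at 3, 6 and 12 h it was 0.09 ± 0.15, -0.11 ± 0.15 and 0.05 ± 0.15, with adjusted p of 0.694, 0.581 and 0.842. The sign of the differences at 6 and 12 h was not stable over the alternatives (-0.18 to 0.04 and -0.03 to 0.26).

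Of the protease inhibitors, Serpina3n had the highest level per length of the 8 genes at 12 h. It encodes a secreted inhibitor of serine proteases related to human alpha-1-antichymotrypsin (ENSMUSG00000021091, GRCm38 chr12:104406729-104414329, + strand, 5 exons). Its libraries had 7.44, 4.72 and 5.75 CPM in sham and 4.60 to 8.58 CPM from ischemia to 1 h, which overlapped with sham. They had 13.95, 13.6 and 23.8 CPM at 1.5 h and 97.1, 26.3 and 40.6 CPM at 3 h. The values were 149, 142 and 104 CPM at 6 h and 192, 193 and 202 CPM at 12 h. From 1.5 h to 12 h all libraries of each later group lay above those of the group before, and the libraries of 12 h differed by only 1.05 times.

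Serpina3n rose against sham by 1.51 ± 0.33 at 1.5 h (adjusted p = 0.00500 by edgeR), 3.19 ± 0.33 at 3 h, 4.46 ± 0.34 at 6 h and 5.03 ± 0.34 at 12 h (4.32e-10), a fold of 32.6. The call at 1.5 h was lost without 1.5 h replicate 3 (adjusted p = 0.0558), and the difference at 3 h was 2.48 without 3 h replicate 1. The steps from 1.5 to 3 h (1.68 ± 0.30, adjusted p = 0.00115) and from 3 to 6 h (1.27 ± 0.28, 0.00176) were called, and became 0.97 and 1.98 without 3 h replicate 1, the library that was highest of its group in Serpina3n, Lcn2, Ptx3, Saa3, Hp and Lbp alike. The step from 6 to 12 h was not called (0.57 ± 0.28, adjusted p = 0.185), except when only those 6 libraries were fitted (0.0250) or genes were not filtered (0.000771).

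Serpina3m, a neighbour of Serpina3n in the same gene cluster, was detected in traces (ENSMUSG00000079012, GRCm38 chr12:104338486-104394257, + strand). The 3 libraries of a group together held 0 reads in sham, 4 in ischemia, 0 at 0.5 h, 0 at 1 h, 12 at 1.5 h, 16 at 3 h, 30 at 6 h and 78 at 12 h. The libraries of 12 h had 25, 27 and 26 reads, above every other library. Those of 3 h had 9, 0 and 7 reads and so overlapped with sham. With sham set at 3 reads over the group, the ratio to sham was 5.002 at 3 h, 8.65 at 6 h and 19.96 at 12 h. These lower bounds allow for the unseen sham level only and carry no counting error of the later group. The fit called Serpina3m higher at those times (adjusted p = 0.0362, 0.00713 and 0.00126 by edgeR). The call at 3 h was lost when any 1 sham library, 3 h replicate 1 or 3 h replicate 3 was left out (adjusted p = 0.0873, 0.0851, 0.0762, 0.0980 and 0.0869) and with DESeq2 and limma-voom (0.0630 and 0.0512). The difference between 12 and 3 h was not called (2.00 ± 0.80, adjusted p = 0.0603), and 5 alternatives called it, namely library totals (0.0457), no filter on low counts (0.0163), limma-voom (0.00604), duplicates removed (0.0343) and only those 6 libraries (0.0319).

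The origin of the Serpina3m reads is uncertain, because the cluster holds similar copies. Of windows of 50 bases in its transcripts, 19.1% occur in transcripts of other genes, 15.96% in those of Serpina3k, whose gene overlaps with it, and 1.12% in those of Serpina3n. In the 12 h libraries Serpina3m had 0.714, 0.707 and 0.733 reads per 100 reads of Serpina3n, and in the 6 h libraries 0.476, 0.513 and 0.358. Whether reads of Serpina3n account for these counts was not tested. Over all libraries 95.9% of the reads of Serpina3m mapped to a single place, as did 93.7% of those of Saa3, 97.2% of those of Lcn2 and 98.5% to 100% for the other 5 genes.

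The other members of the cluster, which runs from Serpina3a to Serpina3n along chromosome 12, had between 0 and 1306 reads each over all 24 libraries. Of 9 listed, 5 were tested, and 3 of these 5 were higher at 3 h, 2 at 6 h and 1 at 12 h, with 0 lower. Of all genes 18.4%, 24.6% and 16.9% were higher at these times. Serpina3f went from 0.896 ± 0.336 CPM in sham to 10.98 ± 6.30 at 3 h (3.59 ± 0.57, adjusted p = 4.41e-05) and was at 2.02 ± 0.356 at 12 h (1.15 ± 0.61, 0.157). Serpina3i was highest at 12 h, with 4.16 ± 1.56 CPM against 0.230 ± 0.225 in sham (4.11 ± 0.68, adjusted p = 6.06e-05). Serpina3h, a pseudogene, was higher at 3 h (1.97 ± 0.57, adjusted p = 0.00936), whereas Serpina3g (1.58 ± 0.62, 0.0504) and Serpina3c (1.17 ± 0.68, 0.188) were not called there. Serpina3a and Serpina3j had 0 reads in all 24 libraries, Serpina3b 3 and Serpina3k 3.

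**Figure D3:**
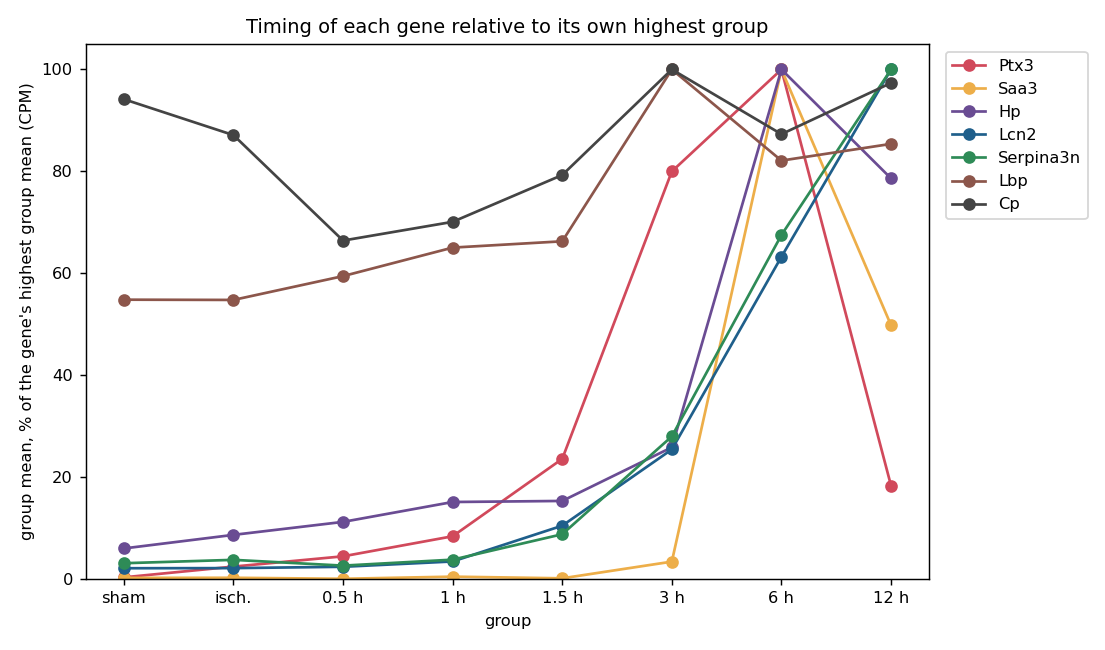
Mean CPM of each group as a percentage of the highest group mean of the same gene (vertical axis) by group (horizontal axis) for 7 of the genes. At 3 h Ptx3 stood at 79.98% of its highest mean, Serpina3n at 27.95%, Hp at 25.8%, Lcn2 at 25.4% and Saa3 at 3.37%; at 12 h Ptx3 was at 18.3%. The percentages of Saa3 and Hp rest on 6 h replicate 2. Without that library Ptx3 stood at 95.1% at 3 h and 21.8% at 12 h.

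The genes thus differed in timing, as the plot of percentages of the highest mean shows. Ptx3 had reached 23.5% of its highest mean at 1.5 h, when Lcn2 stood at 10.4%, Serpina3n at 8.75% and Saa3 at 0.0933%. At 12 h Lcn2, Serpina3n and Serpina3m were at their highest, Hp was at 78.6% and Saa3 at 49.8%. The values of Saa3 and Hp depend on 6 h replicate 2: without it their means at 6 h were 7.59 and 6.16 CPM in place of 23.7 and 8.45, both were highest at 12 h, and Saa3 stood at 6.76% at 3 h and 64.3% at 6 h. In the comparison of 12 h with 3 h, Serpina3n (1.83 ± 0.29, adjusted p = 4.76e-05 by edgeR), Lcn2, Saa3 (3.81 ± 0.74, 0.000547) and Hp (1.59 ± 0.43, 0.00661) were higher, 4 of 8 against 16.8% of all genes. Only Ptx3 of the 8 was lower (-2.13 ± 0.38, adjusted p = 0.000172), against 16.9% of all genes. Saa3 was no longer called there with DESeq2 (adjusted p = 0.0697), and its difference was 5.07 without 3 h replicate 1, as that of Serpina3n was 2.54.

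Between neighbouring times before 3 h no gene of the 8 was called. From ischemia to 0.5 h, 0.5 to 1 h and 1 to 1.5 h, edgeR, DESeq2 and limma-voom each called 0 of them, where edgeR called 0.0331%, 0% and 0.0529% of all genes higher and 0%, 0% and 0.0132% lower. At an unadjusted p under 0.05 the first step had 1 gene (Cp), the second 1 (Ptx3) and the third 4 (Serpina3m, Serpina3n, Lcn2 and Ptx3). Leaving out ischemia replicate 3, Cp was lower at 0.5 h than in ischemia (-0.59, adjusted p = 0.0146). From 1.5 to 3 h 3 of 8 were higher, against 5.36% of all genes, and from 3 to 6 h 4 of 8, against 14.7%. In both steps 0 were lower, against 3.17% and 13.2% of all genes, and from 6 to 12 h 0 were higher, against 6.49%. Without 3 h replicate 2 the count from 1.5 to 3 h was 5, with Saa3 and Lbp added (adjusted p = 0.0482 and 0.0318).

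Across the 24 libraries, which share preparation and scaling, log2 CPM of Lcn2 and Serpina3n had a Pearson r of 0.975, the closest pair of the 8. Saa3 followed Serpina3n (0.916) more closely than Ptx3 (0.583), and Ptx3 was nearest to Lcn2 (0.787). Cp had r of 0.128 to 0.477 with the other 7. Among all other tested genes, the pattern nearest to Serpina3n was that of Lox, a collagen cross-linking enzyme (0.985), followed by Prg4 (0.976) and the metalloproteinase inhibitor Timp1 (0.970). Lox was also the nearest to Serpina3m (0.916) and second for Lcn2 (0.954) after Fkbp5 (0.960), a glucocorticoid-induced chaperone. Nearest to Saa3 were the matrix protein gene Tnc (0.969), Rtn4 (0.963) and Actn1 (0.963), and nearest to Ptx3 were the syndecan gene Sdc4 (0.976), the urokinase receptor gene Plaur (0.964) and Thbs1 (0.958). The nearest to Hp was Adam8 (0.946), to Lbp Atoh8 (0.856) and to Cp Arcn1 (0.822). The mean of Tnc went from 2.87 CPM in sham to 7.46 at 3 h and 42.0 at 6 h, and that of Sdc4 from 12.5 CPM in sham to 112 at 3 h and 49.7 at 12 h.

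**Figure D4:**
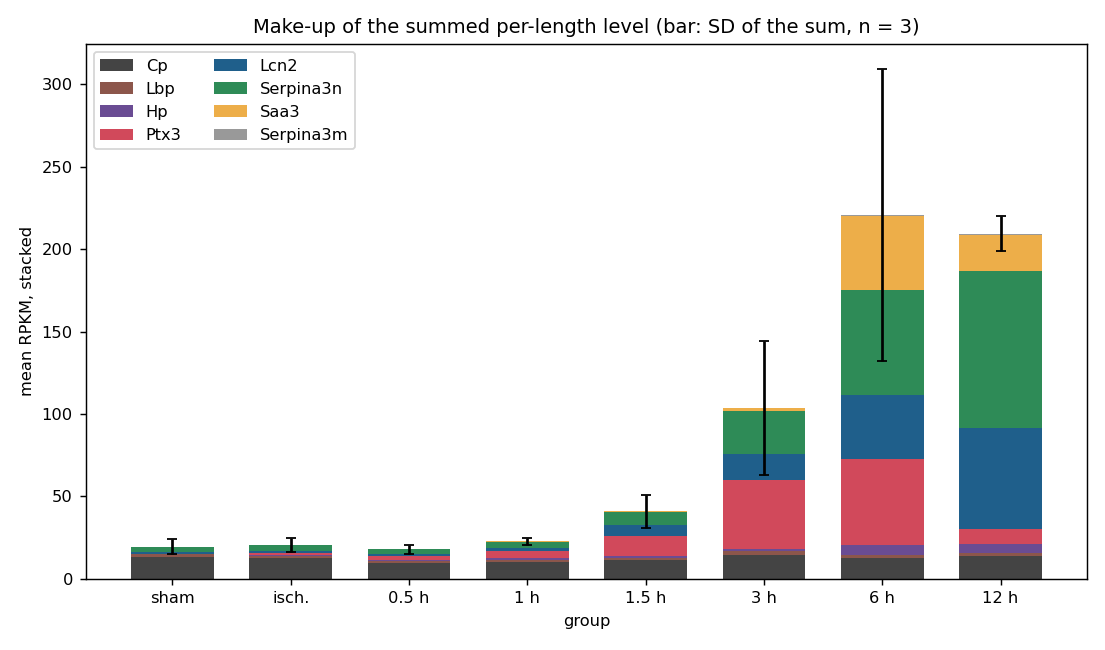
Mean RPKM of the 8 genes stacked by group (vertical axis, starting at 0); the error bar is the SD of the summed level over 3 libraries. The sum was 19.5 in sham, mostly Cp, and 209 at 12 h, mostly Serpina3n and Lcn2.

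To compare genes with each other, levels were divided by the gene length in the count tables and given as RPKM (CPM per kilobase of gene). Summed over the 8 genes the level was 19.5 ± 4.49 RPKM in sham, 17.8 ± 2.502 at 0.5 h, 41.0 ± 9.87 at 1.5 h, 104 ± 40.8 at 3 h, 220.4 ± 88.5 at 6 h and 209 ± 10.6 at 12 h (SD, n = 3). In sham Cp made up 69.7% of the sum and Serpina3n 14.8%. At 3 h Ptx3 held the most, 40.8%, and at 12 h Serpina3n held 45.3%, Lcn2 29.2%, Saa3 10.6%, Cp 6.65% and Ptx3 4.497%. Cp itself stayed between 9.51 and 14.3 RPKM in the group means. The share of Saa3 depends on its length, 531 bases in the tables and 2606 exonic bases in GENCODE vM21, with which its mean at 6 h is 9.10 in place of 44.6 RPKM.

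Of 32 other acute phase genes listed, 22 did not pass the filter on low counts. These 22 had 0 to 89 reads each over all 24 libraries, 14 of them under 20. Among the untested were the pentraxins Apcs (0 reads) and Crp (9), the fibrinogen chains Fga (8), Fgb (1) and Fgg (3), and the liver serum amyloid genes Saa1 (17) and Saa2 (6). Of the 10 tested, 0 were called by edgeR in ischemia and at 0.5 h, 2 were higher at 1 h, 3 at 1.5 h and 6 at each of 3, 6 and 12 h. From 1 to 12 h 7.46%, 4.55%, 18.4%, 24.6% and 16.9% of all genes were higher. At 6 h 1 was lower, Serping1 (-0.37 ± 0.14), and at 12 h 1, C3 (-0.91 ± 0.33), against 22.9% and 14.9% of all genes. The metallothionein Mt2, which binds zinc and copper, rose from 40.6 ± 21.7 CPM in sham to 1190 ± 283 at 6 h (4.88 ± 0.41, adjusted p = 2.80e-09 by edgeR). Mt1 rose by 2.37 ± 0.27 and Il1rn, the interleukin 1 receptor antagonist, by 6.11 ± 0.66 at that time. Ahsg, the gene of the plasma glycoprotein fetuin A, went from 1.27 ± 0.107 to 8.28 ± 1.38 CPM (2.70 ± 0.46, adjusted p = 4.32e-05).

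The known inducers of these genes were followed from a list of cytokines and receptors and a list of transcription factors and feedback genes. Of 16 tested cytokines and receptors, 2 were higher in ischemia, 4 at 0.5 h, 5 at 1 h, 4 at 1.5 h, 12 at 3 h, 12 at 6 h and 10 at 12 h, with 0 lower up to 1.5 h and 1, 1 and 2 lower at 3, 6 and 12 h. Of all genes 0.0925%, 7.43%, 7.46%, 4.55%, 18.4%, 24.6% and 16.9% were higher at these times. The shares lower were 0%, 4.48%, 3.41%, 2.99%, 16.9%, 22.9% and 14.9%. Osmr, the oncostatin M receptor subunit, went from 30.6 ± 1.20 CPM in sham to 169 ± 20.03 at 6 h (2.47 ± 0.20, adjusted p = 1.39e-09 by edgeR). The IL-6 family cytokine Clcf1 (3.55 ± 0.26) and the receptors Il1r1 (1.48 ± 0.17) and Tnfrsf1a (1.76 ± 0.17) were higher at 6 h as well. Of 18 tested transcription factors and feedback genes, 1 was higher in ischemia, 9 each at 0.5, 1 and 1.5 h, 13 at 3 h, 11 at 6 h and 11 at 12 h, with 4, 3 and 2 lower at the last 3 times and 0 before, against the same shares of all genes. Socs3, the feedback inhibitor of STAT3 signalling, was at 2.41 ± 0.714 CPM in sham, 257 ± 108 at 1.5 h and 44.5 ± 4.35 at 12 h. Stat3 itself was 1.04 ± 0.12 higher at 3 h, Rela, a subunit of NF-kappaB, 1.07 ± 0.13 and its partner Nfkbiz 2.54 ± 0.36. At 1.5 h, when Ptx3, Lcn2 and Serpina3n were the members called, Socs3 (6.71 ± 0.60), Nfkbiz (3.32 ± 0.36), Rela (0.71 ± 0.13) and Stat3 (0.56 ± 0.12) were called higher than sham too.

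Receptors and partners of the 8 proteins formed a further list. Of 25 tested, 0 were called in ischemia, 6 were higher and 1 lower at 0.5 h, 6 and 0 at 1 h, 7 and 0 at 1.5 h, 11 and 1 at 3 h, 16 and 3 at 6 h and 13 and 3 at 12 h. Of all genes 7.43%, 7.46% and 4.55% were higher and 4.48%, 3.41% and 2.99% lower at 0.5, 1 and 1.5 h. At the last 3 times 18.4%, 24.6% and 16.9% were higher and 16.9%, 22.9% and 14.9% lower. Selp, the adhesion molecule P-selectin that pentraxin 3 binds, rose from 0.166 ± 0.105 CPM in sham to 16.6 ± 1.46 at 3 h (6.60 ± 0.51, adjusted p = 4.82e-09 by edgeR). The haem oxygenase gene Hmox1, which acts on haem taken up with haptoglobin, rose by 4.53 ± 0.47 at 6 h, and Fpr2, a receptor of serum amyloid A, by 3.88 ± 0.58. Fgf2, a growth factor that pentraxin 3 binds, was not called at 3 h (0.17 ± 0.24, adjusted p = 0.608) and was higher at 12 h (1.87 ± 0.23, 1.91e-06). Cd14, the partner of Lbp, was 2.98 ± 0.34 higher at 3 h, and Lrp2, a receptor for lipocalin 2, was lower at 12 h (-4.31 ± 1.17). Both were chosen after their values were seen.

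**Figure D5:**
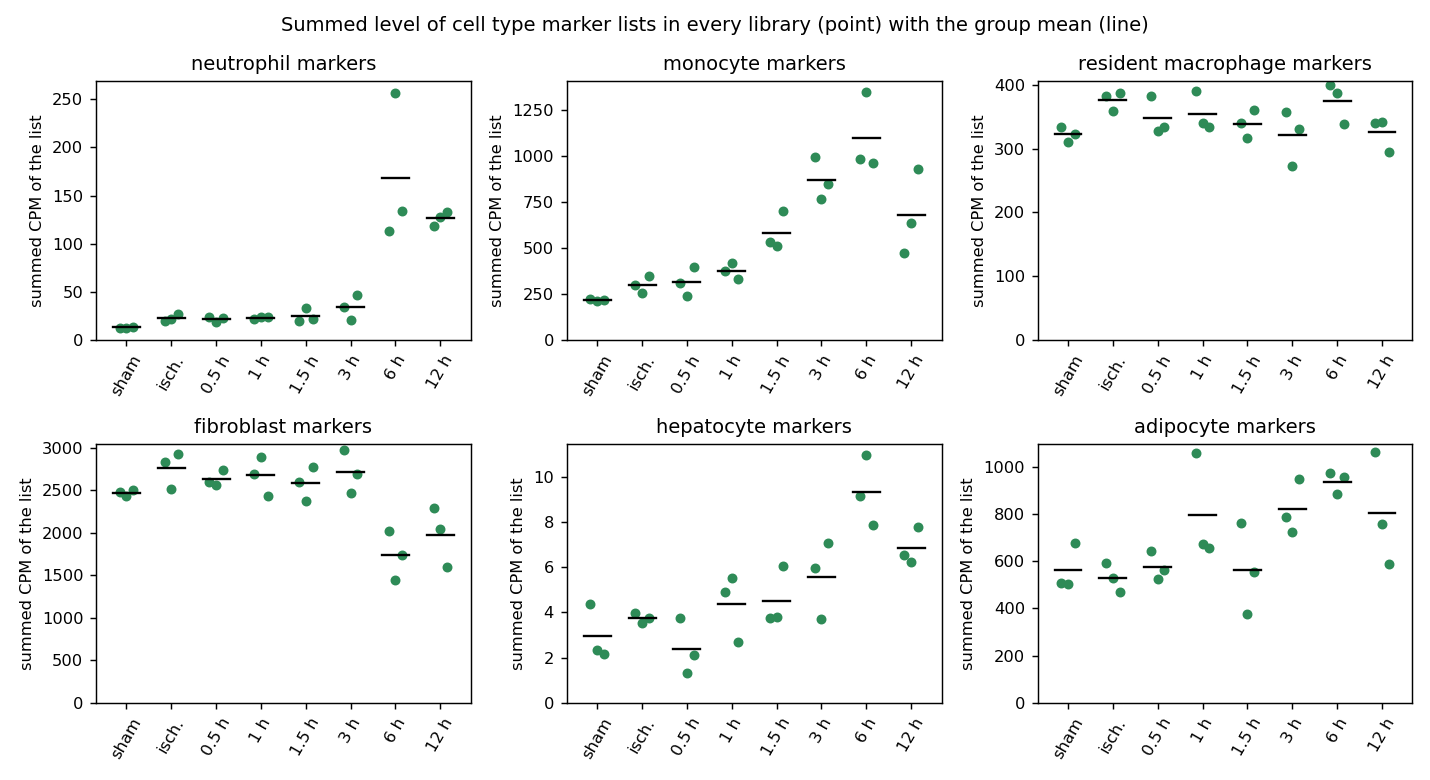
Summed CPM of 6 marker lists (vertical axis, linear, starting at 0) in each library (points) by group, with the group mean as a line. Neutrophil markers lay between 12.7 and 13.98 CPM in sham and between 114 and 257 CPM at 6 h, while hepatocyte markers did not exceed 10.97 CPM in any library.

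Markers of other cell types moved with the late rises. The summed level of 16 neutrophil markers was 12.7 to 13.98 CPM in sham, 20.03 to 26.97 in ischemia, 20.2 to 33.7 at 1.5 h, 21.4 to 47.2 at 3 h, 114 to 257 at 6 h and 118 to 133 at 12 h. Of the 10 tested, 0 were called in ischemia and 5, 5, 7, 8, 10 and 10 were higher at 0.5, 1, 1.5, 3, 6 and 12 h. The shares of all genes that were higher at these 6 times were 7.43%, 7.46%, 4.55%, 18.4%, 24.6% and 16.9%. S100a8 and S100a9, abundant neutrophil transcripts, were at 0.546 and 0.503 CPM in sham, 2.82 and 3.55 at 1.5 h, 4.13 and 5.05 at 3 h and 21.2 and 29.8 at 6 h. With 22 and 20 reads over the sham libraries, both passed the filter on low counts only through groups in which they were higher. The counts of called neutrophil markers thus hold genes favoured by the filter. Monocyte markers (12 of 12 tested higher at 6 h and at 12 h) summed to 211 to 223 CPM in sham and 770 to 995 at 3 h. The sum was 966 to 1352 CPM at 6 h and 476 to 929 at 12 h. It weighs the genes with the most reads most, and its rise at 3 h and fall at 12 h were not shared by most of the list. At 3 h 3 of the 12 were called higher than sham and 2 lower by edgeR, with a median log2 difference of 0.33. Of all genes 18.4% were higher and 16.9% lower at that time. From 6 to 12 h 2 of the 12 were called higher and 1 lower by edgeR, with a median log2 difference of 0.16. Of all genes 6.49% were higher and 6.68% lower in that step. The part of neutrophils and monocytes in the levels of Lcn2, Ptx3, Hp and Saa3 was not tested.

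Liver, fat and lung were measured the same way. The hepatocyte list summed to 2.16 to 4.36 CPM in sham and 7.84 to 10.97 CPM at 6 h; 6 of its 12 genes are acute phase genes listed above, and Ahsg alone had a mean of 8.28 CPM at 6 h. Its leading marker Alb had 1 read in sham and 0 reads at 3, 6 and 12 h, and Apoa1 had 1, 3, 2 and 0. Of the hepatocyte list 4 were tested, of which 2 were higher at each of 3, 6 and 12 h and 1 was lower at 6 h. The shares of all genes were 18.4%, 24.6% and 16.9% higher at these times and 22.9% lower at 6 h. The adipocyte list summed to 504 to 678 CPM in sham, 883 to 975 at 6 h and 586 to 1063 at 12 h. It was carried by its 2 tested genes, Fabp4 and Lipe, which are also transcribed outside fat; both were higher at 6 h (0.74 ± 0.23 and 0.69 ± 0.17, adjusted p = 0.0113 and 0.00154). Adipoq, the defining fat marker, had 4 reads in sham, at most 8 in any group and 2 each at 3, 6 and 12 h. The lung epithelium list, of which 0 of 8 genes were tested, summed to 0 to 0.0642 CPM in sham, 0.183 to 0.373 at 6 h and 0.220 to 0.404 at 12 h. Within it Sftpb had 0 reads in sham and 15 at 12 h, and Scgb1a1 had 0 in every group. The part of liver, fat or lung RNA in the levels of the 8 genes was not tested. Fibroblast markers summed to 2429 to 2503 CPM in sham and 1445 to 2025 at 6 h, endothelial markers to 1194 to 1316 and 1522 to 1614, and cardiomyocyte markers to 83168 to 87642 and 70720 to 79961, with 57557 to 67533 at 12 h. Resident macrophage markers lay at 311 to 334 CPM in sham and 339 to 400 at 6 h, smooth muscle and pericyte markers at 1694 to 1741 and 1038 to 1382, mesothelial markers at 28.7 to 32.2 and 24.998 to 29.7, and red cell markers at 79.2 to 186 and 129 to 213. Red cell markers were higher early, at 244 to 297 CPM in ischemia and 219 to 352 at 0.5 h. Of the 5 tested, 0 were called in ischemia and 3 were higher at 0.5 h, against 0.0925% and 7.43% of all genes. The part of blood in the levels of the 8 genes was not tested.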

How the data were processed

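Sequencing libraries were prepared from total RNA with an Illumina TruSeq kit, per the labels' protocols. The deposited tables hold, for each library, raw read counts per Ensembl gene made by the authors: uniquely mapped reads with and without marked duplicates, and both again with multiply mapped reads, per the file headers. Reads were mapped to mm10, per the submitters' processing notes. Not given in the sources used here are the aligner, the counter, the strand setting and the annotation. The gene length in the deposited tables, in bases, was used for RPKM.

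Uniquely mapped counts with duplicates kept were fitted with edgeR 4.0.16 (R 4.3.3): filterByExpr with a minimum count of 10 and a minimum total of 15, TMM factors, 1 coefficient per group, glmQLFit and glmQLFTest, 14 pairwise comparisons and 1 test across the groups, with Benjamini-Hochberg adjustment at 0.05 over 15128 genes. The standard error is the absolute log2 fold change divided by the square root of F. Symbols came from a gene name table for 45143 of 46078 IDs, and positions and exons from GENCODE vM21 on GRCm38. The script was tested on simulated data. Alternatives were DESeq2 1.42.0, limma-voom (limma 3.58.1), DESeq2-type size factors, library totals, no filter on low counts, duplicates removed, multiply mapped reads included, only the libraries compared, the replicate number as a block, and leaving out each library. No 2 libraries were identical. Correlations used log2 CPM with a prior count of 2. For Saa3 and Serpina3m, ratios of scaled reads replaced fitted folds because sham held 3 reads or fewer; intervals are exact at 95%.

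The 8 genes and all gene lists were chosen with earlier results of these data known. Listed genes with few reads in sham could pass the filter only through groups in which they were high, which favours calls of higher. Named besides the 8 were up to 4 called genes per pathway list with the smallest p across the groups, the Serpina3 cluster, the first 4 genes of each of 12 cell type lists where a statement needed them, and the 3 genes nearest in pattern to each of the 8. Outside this rule Serping1, C3, the acute phase genes that were not tested, Cd14, Lrp2, Fabp4 and Lipe were named after their values were seen.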

Additional observations from a re-analysis of the deposited data

Results flagged for a closer look

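The results below stand out because the difference between neighbouring times itself passed edgeR's quasi-likelihood test, with adjustment over all tested genes. Between 1.5 and 3 h, log2 level was higher by 1.68 for Serpina3n, 1.29 for Lcn2 and 1.77 for Ptx3, with adjusted p of 0.00115, 0.0312 and 0.00440. Between 3 and 6 h it was higher by 1.27 for Serpina3n, 1.31 for Lcn2, 4.81 for Saa3 and 1.93 for Hp, with adjusted p of 0.00176, 0.00775, 6.70e-05 and 0.00176. Ptx3 differed by -2.45 between 6 and 12 h (adjusted p = 0.000186). Each group has 3 libraries, too few for a check of single outlying libraries by their gap to the others.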

How the results depend on the processing

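Of 112 log2 differences of the 8 genes, 23 changed sign under at least 1 alternative, and 0 of these 23 were called. Over all recomputed differences of single genes, 1526 kept sign and call, 66 uncalled ones turned sign, 31 lost a call and 30 gained one. Among differences given above, ranges that span 0 were -1.44 to 0.63 for Saa3 and -0.63 to 0.11 for Hp between 6 and 12 h, and -0.18 to 0.04 and -0.03 to 0.26 for Cp at 6 and 12 h against sham. With no filter on low counts the genes called of the 8 were 1 in ischemia, 4 at 1 h and 5 at 1.5 h against sham, 1 from ischemia to 0.5 h, 1 from 0.5 to 1 h, 4 from 1 to 1.5 h and 4 from 6 to 12 h. Of all 26977 genes then tested, 0.875%, 4.63% and 3.84% were higher in the first 3 of these comparisons and 0.856%, 0.393%, 0.897% and 3.97% in the others. With the filter these shares were 0.0925%, 7.46%, 4.55%, 0.0331%, 0%, 0.0529% and 6.49%. Cp at 1 h, and Ptx3 and Saa3 from 6 to 12 h, are in these counts as lower. In those 2 comparisons 2.57% and 4.23% of all genes were lower without the filter, against 3.41% and 6.68% with it. The cause of these shifts was not tested. DESeq2, and a fit of only the libraries compared, each called 1 in ischemia, where they called 0.264% and 0.187% of all genes higher. The latter called 2 from 6 to 12 h, with fewer samples, where 5.01% of all genes were higher and 5.45% lower. At 0.5 h against sham library totals and limma-voom each called 1 in place of 2. Of all genes they called 10.8% and 6.71% higher and 1.52% and 4.42% lower there. Leaving out 1 library at a time gave 1 to 2 calls at 0.5 h against sham, 0 to 1 from ischemia to 0.5 h (1 without ischemia replicate 3) and 2 to 5 from 1.5 to 3 h (5 without 3 h replicate 2). Shares of all genes were not recorded for the fits without a library. The replicate block called 7 at 3 h against sham in place of 6 and left the other counts as they were: 0 in ischemia, 2 at 0.5 h, 1 at 1 h, 3 at 1.5 h, and 7 each at 6 and 12 h. With the block 0.0925%, 6.72%, 6.98%, 4.25%, 18%, 24.3% and 16.4% of all genes were higher than sham from ischemia to 12 h. At 0.5 h 3.89% were lower. The labels do not say that the numbers pair samples, and same-numbered libraries did not deviate together (median r of -0.0107, 0.0127 and -0.0130 over 28 pairs per number, with 3, 1 and 2 pairs over 0.1; 5 of all 24 libraries correlated best with their own number). Counts without Saa3 and Serpina3m, and means without 6 h replicate 2, were chosen after seeing the data. Depth limits Saa3 and Serpina3m, whose sham groups held 2 and 0 reads.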
